A study of Homo sapiens with 3 samples.

Results

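The miRNAs described here are 5 mature miRNAs of the neural lineage, hsa-miR-9-5p, hsa-miR-9-3p, hsa-miR-128-3p, hsa-miR-129-5p and hsa-miR-124-3p (the prefix hsa, for human, is left out hereafter), chosen by name from the 2588 human miRNAs listed in each library. They were followed in the human melanoma cell line SK-MEL-2 by small-RNA sequencing of total RNA. Melanoma arises from melanocytes, pigment cells that descend from the neural crest of the embryo. Cells were left untreated (control) or exposed for 3 min or 5 min to a plasma jet, which blows weakly ionised gas onto the culture without heating it much, and were then cultured for 2 more days. All 3 groups were the same cell line in the same medium, sampled on Day 2. Each group was 1 library, so no difference below has a replicate check, no test was possible, and every interval is an exact 95% counting interval that leaves out variation between cultures and libraries.

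A miRNA is cut from a hairpin RNA whose stem gives a 5p arm and a 3p arm. An arm that is loaded into an Argonaute protein pairs with mRNAs, mainly through its seed (bases 2 to 8 from the 5′ end), and lowers their translation or stability. In the developing nervous system, miR-9-5p is known to repress the neuronal gene silencer REST and miR-9-3p its partner RCOR1. miR-124-3p, the leading miRNA of mature neurons, represses PTBP1 and thereby shifts splicing to the neuronal pattern. miR-128-3p is a neuron-enriched miRNA that represses BMI1 and dampens neuronal excitability in mouse. miR-129-5p is a brain-enriched miRNA known to repress SOX4.

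Mature sequences of 4 of the 5 members were taken from RefSeq (GRCh38.p14). They are shown with the seed in capitals, since members that share a seed can share targets and none of these 4 do.
miR-9-5p: uCUUUGGUuaucuagcuguauga
miR-9-3p: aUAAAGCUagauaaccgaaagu
miR-128-3p: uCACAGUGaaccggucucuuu
miR-129-5p: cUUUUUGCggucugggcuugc

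No other listed miRNA with a RefSeq sequence had the seed of miR-9-5p, miR-9-3p or miR-129-5p. The seed of miR-128-3p was shared with miR-3681-3p and miR-216a-3p, both at 0 counts in all 3 libraries. The abundant miR-27a-3p and miR-27b-3p carry the same letters shifted by 1 base, at bases 3 to 9, and share a run of 8 bases with miR-128-3p. Their sequences are shown for that overlap, with their own seeds in capitals.
miR-27a-3p: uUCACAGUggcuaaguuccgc
miR-27b-3p: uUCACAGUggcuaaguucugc

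Across the whole molecule miR-128-3p differs from miR-27b-3p by 9 edits and from miR-27a-3p by 10. The closest listed miRNA with a RefSeq sequence differed by 8 edits from miR-9-5p, by 7 from miR-9-3p, by 7 from miR-128-3p and by 6 from miR-129-5p. For miR-128-3p this was miR-139-5p, with 38, 45 and 14 counts over control, 3 min and 5 min, tied with 1 other.

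Each of these 4 can come from more than 1 gene. The hairpins are shown with both mature arms in capitals. The arms of the members are identical between the genes of a family, so reads of a mature member cannot be assigned to one gene, while the opposite arms of the miR-128 and miR-129 hairpins differ.
MIR9-1: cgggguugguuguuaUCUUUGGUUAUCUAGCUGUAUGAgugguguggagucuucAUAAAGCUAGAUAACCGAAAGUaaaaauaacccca
MIR9-2: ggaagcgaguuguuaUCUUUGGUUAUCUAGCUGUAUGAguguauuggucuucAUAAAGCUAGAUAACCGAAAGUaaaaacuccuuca
MIR9-3: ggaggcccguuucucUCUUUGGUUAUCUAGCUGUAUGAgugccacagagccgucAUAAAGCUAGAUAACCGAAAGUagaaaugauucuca
MIR128-1: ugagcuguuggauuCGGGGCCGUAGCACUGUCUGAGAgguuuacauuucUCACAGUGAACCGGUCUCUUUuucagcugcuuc
MIR128-2: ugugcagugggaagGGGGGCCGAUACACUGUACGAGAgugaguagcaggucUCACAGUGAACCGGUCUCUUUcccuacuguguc
MIR129-1: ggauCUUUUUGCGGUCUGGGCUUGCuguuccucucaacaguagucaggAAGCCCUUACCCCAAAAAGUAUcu
MIR129-2: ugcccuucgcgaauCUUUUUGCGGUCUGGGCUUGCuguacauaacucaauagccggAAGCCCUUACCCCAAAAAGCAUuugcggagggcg

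On GRCh38, with genes as annotated by GENCODE 29, MIR9-1 lies at chr1:156420341-156420429 on the minus strand, in an intron of C1orf61. MIR9-2 lies at chr5:88666853-88666939 on the minus strand and overlaps an annotated exon of the long non-coding RNA LINC00461. MIR9-3 lies at chr15:89368017-89368106 on the plus strand, in an intron of the long non-coding RNA MIR9-3HG. Outside the shared arms these 3 hairpins differ in their loops of 16, 14 and 16 bases and in their stems, with 77.8% to 83.1% identity over the whole hairpin. MIR128-1 (chr2:135665397-135665478, plus strand) lies in an intron of R3HDM1 and MIR128-2 (chr3:35744476-35744559, plus strand) in an intron of ARPP21. MIR129-1 (chr7:128207872-128207943, plus strand) overlaps no other annotated gene, and MIR129-2 (chr11:43581394-43581483, plus strand) lies in introns of the non-coding genes AC068205.1 and AC068205.2.

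The libraries held 1045482 counts (control), 966943 counts (3 min) and 615645 counts (5 min), so 1 count was worth 0.956, 1.03 and 1.62 CPM (counts per 1000000 library counts) in that order. A ratio was read only where a miRNA averaged 20 counts or more, which was true of 231 miRNAs, 4 of the 5 members among them. Ratios between libraries used TMM scaling, a trimmed mean of ratios over those 231. Among all 2588 listed miRNAs, 1623 had no count in any library. Of the melanocyte and melanoma miRNAs, 5 of 10 had counts, with summed levels of 30531, 40817 and 40709 CPM over control, 3 min and 5 min. Most of that sum was hsa-miR-221-3p, at 22121, 30753 and 33107 CPM. After 5 min 3 of the 5 were lower in CPM than in the control. Over the same libraries hsa-miR-204-5p stood at 2495, 2622 and 2042 CPM and hsa-miR-222-3p at 4532, 5851 and 3604 CPM. The other, hsa-miR-211-5p, stood at 122, 100.3 and 106 CPM. Its counting intervals in the control (102 to 146) and after 5 min (81.5 to 135) overlapped. Like hsa-miR-221-3p, hsa-miR-146a-5p was higher after 5 min, at 1262, 1491 and 1850 CPM over the same libraries. The 5 listed members of the miR-506 to miR-514 cluster were at 0. Of the markers of other cell types, epithelial miRNAs (6 of 7 detected) summed to 15.3, 29.99 and 71.5 CPM, muscle miRNAs (2 of 4) to 0.956, 3.10 and 24.4 CPM and blood miRNAs (7 of 8) to 17.2, 22.8 and 25.99 CPM over control, 3 min and 5 min. Liver miR-122-5p stood at 109, 121.0 and 123 CPM and the endothelial miR-126 arms together at 313, 338 and 378 CPM. In each library the endothelial sum was above the level of miR-129-5p, and the counting intervals of miR-122-5p and miR-9-3p overlapped. The epithelial and muscle sums were higher after longer exposure. They rested on few counts, 16, 29 and 44 (epithelial) and 1, 3 and 15 (muscle) over control, 3 min and 5 min. The 15 muscle counts after 5 min were all of miR-1-3p, and no miRNA of either list averaged 20 counts. The part of these sums in the results below was not tested.

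miR-9-5p was by far the most abundant member and miR-124-3p was not seen. Over control, 3 min and 5 min, hsa-miR-9-5p had 16885, 14199 and 11140 counts, or 16150, 14684 and 18095 CPM. It ranked 14th, 14th and 13th among all listed miRNAs, next to miR-140-3p and miR-24-3p in the control. hsa-miR-128-3p had 1444, 1540 and 564 counts (1381, 1593 and 916 CPM), at ranks 52, 50 and 61. hsa-miR-129-5p had 257, 232 and 100 counts (246, 239.9 and 162 CPM), at ranks 101, 105 and 118. hsa-miR-9-3p had 112, 146 and 70 counts (107, 151 and 114 CPM), at ranks 132, 119 and 133.

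The order miR-9-5p, miR-128-3p, miR-129-5p, miR-9-3p held in all 3 libraries. Counting intervals of neighbours in that order did not overlap, except for miR-129-5p (132 to 198 CPM) and miR-9-3p (88.6 to 144 CPM) after 5 min. Adapter ligation favours some RNA ends, so the order is one of counts and not of molar amounts. Together the members took 1.67% of the counts after 3 min and 1.93% after 5 min, against 1.79% in the control. Within that sum the share of miR-9-5p was 90.3% (control), 88.1% (3 min) and 93.8% (5 min).

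**Figure D1:**
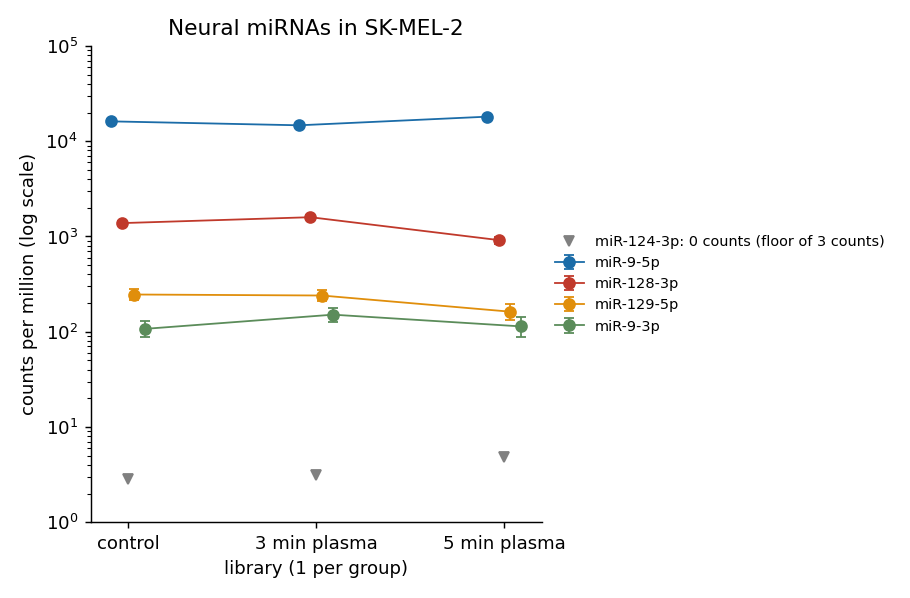
CPM (log axis) of the members in the untreated, 3 min and 5 min libraries; points are library values, bars are exact 95% counting intervals, and grey triangles mark the level of 3 counts for miR-124-3p, which had 0. miR-9-5p lies between 14684 and 18095 CPM, while miR-128-3p and miR-129-5p are lowest after 5 min, at 916 and 162 CPM.

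hsa-miR-124-3p had 0 counts in each library. A floor of 3 counts corresponds to 2.87 CPM in untreated cells, 3.10 CPM at 3 min and 4.87 CPM at 5 min. The exact counting intervals of miR-124-3p reached higher, up to 3.53, 3.81 and 5.99 CPM in that order. Its opposite arm miR-124-5p had 3 counts in the control and 0 in both plasma libraries. miR-137, another miRNA of neurons, was also at 0 in all 3 libraries. Neither was detectable at this depth in these melanoma cells, while the other members, known from the same tissue, had counts in every library.

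After 3 min of plasma, the members stayed within 1.5-fold of control. miR-9-3p was 1.42-fold higher (1.10 to 1.84) and miR-128-3p 1.16-fold higher (1.08 to 1.25). miR-9-5p was 1.09-fold lower (1.07 to 1.11). For miR-129-5p the log2 ratio was -0.02 (-0.28 to 0.24), an interval on both sides of control. None of the 4 measured members was at least 1.5-fold higher, against 6.93% of all 231 miRNAs, and none was 1.5-fold lower, against 5.19%. The median log2 ratio was 0.099 over the 4 members and 0.05 over the 231.

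After 5 min of plasma, miR-128-3p and miR-129-5p were lower than in the control, while both arms of miR-9 stayed near it. miR-128-3p had 564 counts after 5 min against 1444 in the deeper control, 916 CPM (842 to 995) against 1381 CPM (1311 to 1454), a log2 ratio of -0.60 (-0.75 to -0.46). miR-129-5p had 100 counts against 257, 162 CPM (132 to 198) against 246 CPM (217 to 278), a log2 ratio of -0.61 (-0.96 to -0.27). For both, the 5 min counting interval lay wholly under that of the control. Thus 2 of 4 measured members were at least 1.5-fold lower, each at 1.52 or 1.53-fold and so just past that line, where 11.7% of the 231 miRNAs stood; none was 1.5-fold higher, against 17.3% of the 231. Scaling over all listed miRNAs lowered every 5 min log2 ratio by a fixed step, -0.21 with DESeq2 size factors, and put 27 of the 231 higher and 42 lower at 1.5-fold, against 40 and 27 here. Among the 231, 26 miRNAs had a lower ratio than miR-128-3p and 25 a lower ratio than miR-129-5p.

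miR-9-5p was 1.11-fold higher after 5 min (1.09 to 1.14), with 18095 CPM (17763 to 18431) against 16150 CPM (15910 to 16394) in the control. This direction depended on scaling: size factors or TMM computed over all listed miRNAs gave log2 ratios of -0.06 and -0.02, against 0.15 here. The log2 ratio of the minor arm, miR-9-3p, was 0.07 (-0.38 to 0.52), and it too turned negative under those scalings. Over the 4 measured members the median was -0.26, against 0.05 over all 231. That median fell in the gap between the lower miR-128-3p and miR-129-5p and the arms of miR-9, so it describes no single member.

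**Figure D2:**
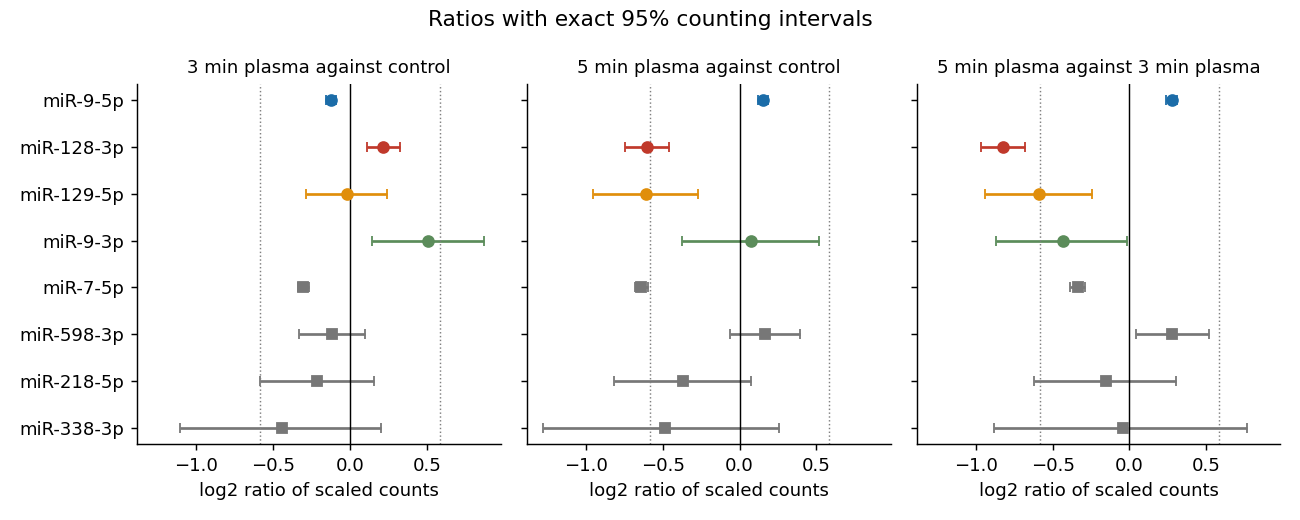
Log2 ratios of scaled counts for the 4 measured members (coloured circles) and the 4 measured miRNAs of the other neural list (grey squares) in the 3 pairs of libraries; bars are exact 95% counting intervals, the solid line is no difference and dotted lines mark 1.5-fold. miR-128-3p and miR-129-5p lie at -0.60 and -0.61 in 5 min plasma against control, and miR-9-5p at 0.15.

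Set directly against 3 min, the 5 min library separated the members further. miR-128-3p was 1.77-fold lower after 5 min than after 3 min (1.60 to 1.95), with 564 counts against 1540. Only 7 of the 231 miRNAs had a lower ratio in this pair. miR-129-5p had a log2 ratio of -0.59 (-0.94 to -0.24), with 100 counts against 232, and miR-9-3p one of -0.43 (-0.87 to -0.01), with 70 counts against 146. The miR-9-3p interval held no difference with library totals (-0.84 to 0.01) and with TMM over miRNAs averaging 100 counts or more (-0.80 to 0.05). miR-9-5p was the member on the other side, 1.21-fold higher after 5 min (1.18 to 1.24). At least 1.5-fold lower were 2 of 4 members, against 8.66% of the 231; miR-129-5p sat on the line, and the count was 1 under 3 of 6 other scalings, library totals among them. No member was 1.5-fold higher, against 13.0% of the 231. The control library entered these ratios only through the scaling and the count filter.

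**Figure D3:**
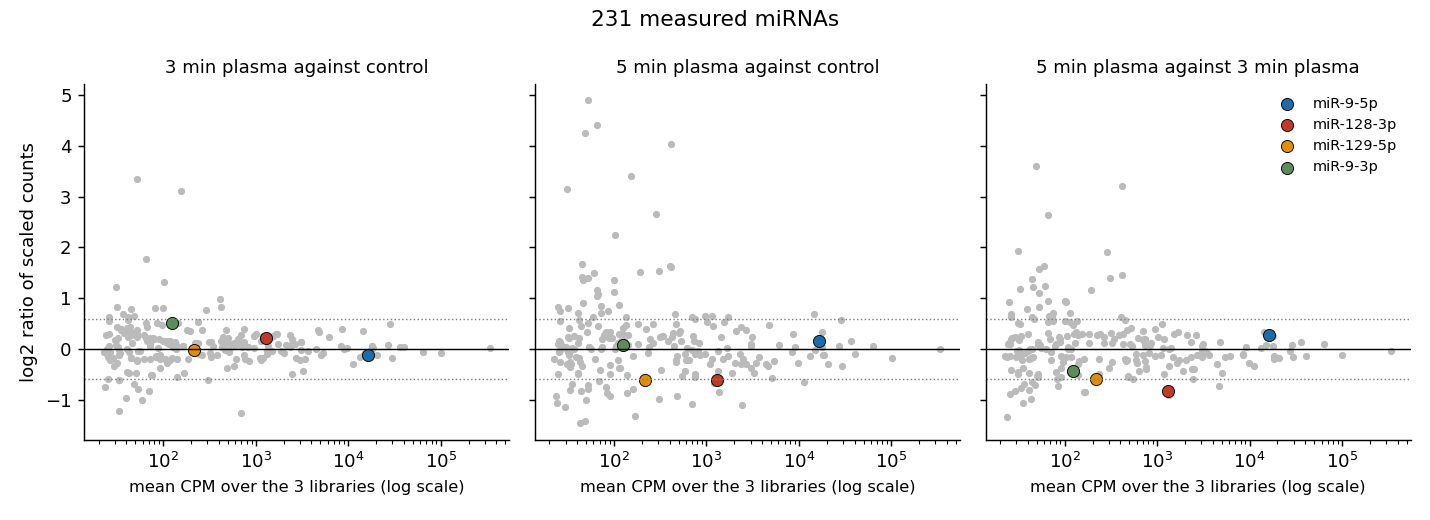
Log2 ratio of scaled counts against mean CPM over the 3 libraries (log axis) for the 231 measured miRNAs (grey) and the 4 measured members (coloured), one panel per pair of libraries; dotted lines mark 1.5-fold. In 5 min plasma against 3 min plasma, miR-128-3p at -0.82 lies under most miRNAs, with 7 lower, and miR-9-5p lies at 0.28.

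Ratios within a library need no scaling between libraries. They rest on the same counts as the ratios above, so they restate that separation without scaling and are no separate check of it. As a share of miR-9-5p counts, miR-128-3p stood at 8.55% in the control (8.10 to 9.02), at 10.8% after 3 min of plasma (10.3 to 11.4) and at 5.06% after 5 min of plasma (4.64 to 5.51). The 3 intervals did not overlap. Relative to miR-9-5p, miR-128-3p was thus 0.592 times the control after 5 min (0.535 to 0.655) and 1.27 times the control after 3 min (1.18 to 1.37).

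The same share of miR-129-5p was 1.52% in the control (1.34 to 1.72), at 3 min 1.63% (1.43 to 1.86) and at 5 min 0.898% (0.730 to 1.09). The 5 min value lay under both others, whose intervals overlapped. Between themselves these members moved less: miR-129-5p counts were 17.8% of miR-128-3p counts (control), 15.1% (3 min) and 17.7% (5 min), with overlapping intervals. Their ratio after 5 min was 0.996 times that of the control, with an interval of 0.767 to 1.29.

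The balance of the miR-9 arms can be read in the same way, since both arms are cut from the same hairpins. miR-9-3p counts were 0.663% of miR-9-5p counts in untreated cells (0.546 to 0.799), at 3 min 1.03% (0.867 to 1.21) and at 5 min 0.628% (0.489 to 0.795). The 3 min library stood above both others, with no overlap of intervals. Its arm ratio was 1.55 times that of the control (1.20 to 2.00), whereas the 5 min ratio was 0.947 times that of the control (0.692 to 1.29). The minor arm rests on 146 counts or fewer per library.

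**Figure D4:**
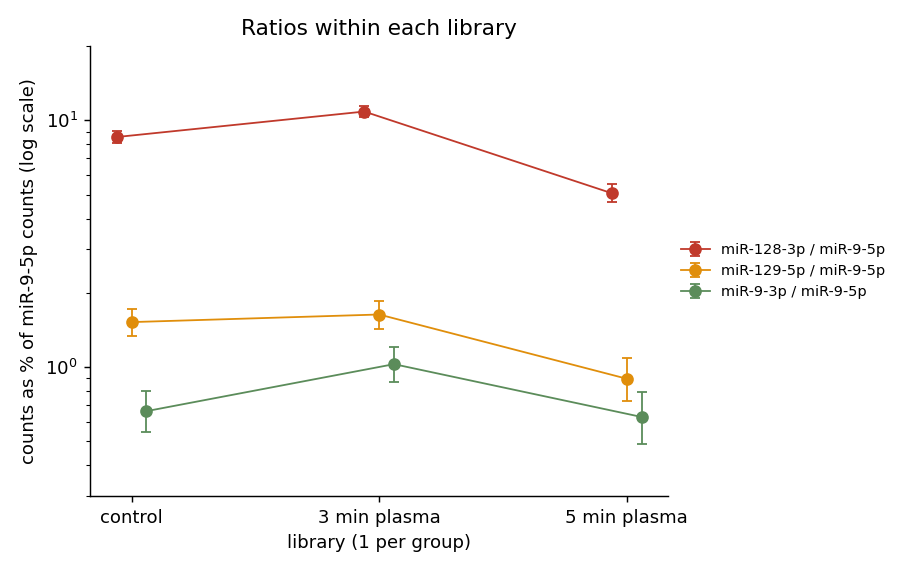
Counts of miR-128-3p, miR-129-5p and miR-9-3p as a percent of miR-9-5p counts in the same library (log axis) for the untreated, 3 min and 5 min libraries, with exact 95% counting intervals as bars. miR-128-3p stands at 8.55%, 10.8% and 5.06%, and miR-9-3p is highest after 3 min, at 1.03%.

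miR-128-3p can also be set beside miR-27, with which it shares the bases shown above. The same miR-128-3p counts enter this comparison, so it is no separate check of the ratios to control. The 3 libraries, in order of exposure, held 36276, 34077 and 24137 counts of miR-27b-3p and 18427, 16755 and 11307 of miR-27a-3p. Relative to miR-27b-3p, miR-128-3p was 0.587 times the control after 5 min (0.531 to 0.648) and 1.14 times the control after 3 min (1.05 to 1.22). Relative to miR-27a-3p it was 0.637 times the control after 5 min (0.575 to 0.704) and 1.17 times after 3 min (1.09 to 1.26). After 5 min miR-128-3p was thus lower relative to both miRNAs with the overlapping bases, and after 3 min slightly higher.

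The opposite arms carry what these counts hold on the source gene. miR-129-1-3p and miR-129-2-3p differ by U20C, counted from the 5′ end of the mature RNA with the miR-129-1-3p base first. Their sequences are shown with the seed, which they share, in capitals.
miR-129-1-3p: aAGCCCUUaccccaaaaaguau
miR-129-2-3p: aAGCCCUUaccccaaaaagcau

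In order of exposure, miR-129-2-3p, from MIR129-2, had 10, 13 and 9 counts, and miR-129-1-3p, from MIR129-1, had 1, 5 and 3. Over the 3 libraries 32 of 41 counts, 78.0% (62.4 to 89.4), were of the MIR129-2 arm. A read with an error or a trimmed end at that base could be counted for the other gene. miR-128-1-5p, from MIR128-1, had 9, 4 and 9 counts, and miR-128-2-5p, from MIR128-2, had 0 in each library. Both miR-128 5p arms differ in sequence, ligation and stability can differ between them, and none of these arms reached the mean of 20 counts, so no ratio between libraries is read from them.

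Other miRNAs known from neurons, neural progenitors or glia were looked at as a list of 18. Of these, 11 had counts in some library and 7 had none, beside 1623 with none among all 2588 listed miRNAs. Only miR-7-5p, miR-598-3p, miR-218-5p and miR-338-3p reached a mean of 20 counts. miR-7-5p, a repressor of EGFR that is also abundant in endocrine cells, had 14408, 10701 and 5489 counts over control, 3 min and 5 min, a log2 ratio of -0.64 (-0.68 to -0.59) for 5 min against control and -0.30 (-0.34 to -0.27) for 3 min against control. Its counts could include reads of the antisense miR-3529-3p (14868, 12149 and 8019 counts) if strand was not used in counting. The brain-enriched miR-598-3p had 397, 336 and 264 counts, and its log2 ratio to control was 0.16 at 5 min (-0.07 to 0.39) and -0.11 at 3 min (-0.33 to 0.10); the 5 min sign turned when all listed miRNAs entered the scaling.

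miR-218-5p, known from motor neurons, had 139, 110 and 64 counts, and log2 ratios of -0.37 at 5 min (-0.82 to 0.07) and -0.21 at 3 min (-0.59 to 0.16). miR-338-3p, known from oligodendrocytes, had 52, 35 and 22 counts and log2 ratios of -0.49 at 5 min (-1.28 to 0.26) and -0.45 at 3 min (-1.11 to 0.20). Its hairpin is antisense to that of miR-3065, whose 3p arm had 126, 123 and 58 counts. For 3 of these 4 miRNAs the interval held no difference from control at both exposures. After 5 min 1 of the 4, miR-7-5p, passed 1.5-fold on the lower side and none on the higher, beside 11.7% lower and 17.3% higher over all 231. After 3 min 0 of 4 were 1.5-fold away, beside 5.19% lower and 6.93% higher. With all listed miRNAs in the scaling the 5 min count on the lower side was 2, the other being miR-338-3p, and that over all 231 was 42 (DESeq2) or 40 (TMM), against 27. The medians were -0.43 and -0.26, beside 0.05 over all 231 miRNAs at each exposure, a value whose own sign changed with the scaling.

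Likeness of pattern was measured as the distance between pairs of log2 ratios, 3 min and 5 min against control, among the 231 miRNAs; it rests on 3 libraries with a shared control. Nearest to miR-9-5p were miR-598-3p (distance 0.015), miR-103b (0.036) and miR-103a-3p (0.056). Nearest to miR-128-3p were miR-139-5p (0.17), miR-3184-5p (0.18) and miR-425-5p (0.23). miR-129-5p lay nearest to miR-99b-5p (0.095), miR-3184-5p (0.097) and miR-425-5p (0.10), and miR-9-3p to miR-3184-3p (0.039), miR-7-1-3p (0.078) and miR-503-5p (0.11). Counting error does not enter these distances, and some of the nearest miRNAs were scarce. Over control, 3 min and 5 min, miR-139-5p had 38, 45 and 14 counts, miR-7-1-3p 23, 31 and 15, and miR-503-5p 33, 40 and 20. The hairpins of miR-103b and miR-3184 lie antisense to those of miR-103a and miR-423, so their counts can hold reads of both strands.

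Under the 6 other scalings the 5 min log2 ratio ranged from -0.81 to -0.59 for miR-128-3p and from -0.82 to -0.60 for miR-129-5p, and both stayed at least 1.5-fold lower in all 6. These scalings shifted every such ratio by between -0.21 and 0.011, so staying past that line was hardly put to a test. In the scaling used, the counting intervals crossed it, at 1.38 to 1.68-fold lower for miR-128-3p and 1.21 to 1.94-fold lower for miR-129-5p. For miR-9-5p the 5 min log2 ratio ranged from -0.06 to 0.16, positive in 4 of the 6 other scalings. After 3 min the log2 ratios of miR-128-3p and miR-9-3p were positive, and that of miR-9-5p negative, in all 6.

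**Figure D5:**
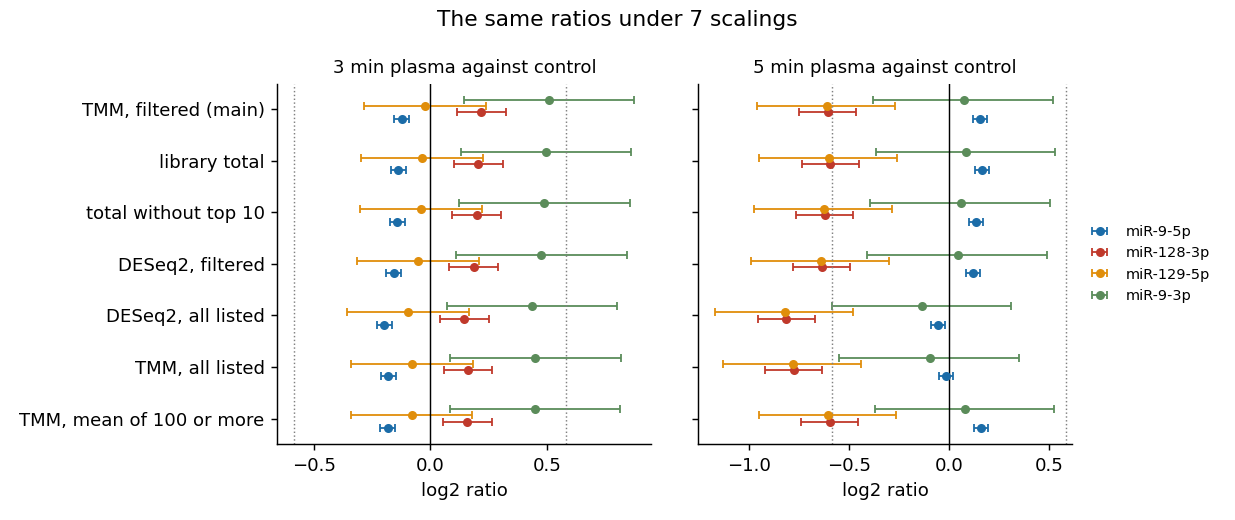
Log2 ratios of the 4 measured members for 3 min and 5 min plasma against control under the scaling used here and 6 others, with exact 95% counting intervals; dotted lines mark 1.5-fold. The points of miR-128-3p and miR-129-5p lie beyond 1.5-fold lower after 5 min in each scaling, with intervals that cross that line in the scaling used here. miR-9-5p changes side when all listed miRNAs enter the scaling.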

How the data were processed

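Small RNA from SK-MEL-2 cells was sequenced in 3 libraries, 1 per group. Per the labels' protocols, RNA was taken with Trizol and libraries were made with a NEBNext small-RNA kit. The deposited values are raw read counts per mature miRNA. The submitters' processing notes name the tools Bowtie2, bedtools and edgeR without versions or roles. Genome build, annotation, trimming and the handling of strand and of multiple matches: not given in the sources used here. The counts hold no molecular identifiers, so intervals and floors cover counting error only.

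Members, lists and rules were chosen with earlier results of these data known. All members were named, with their opposite arms, seed sharers, the measured miRNAs of the other neural list, rank neighbours and the 3 nearest miRNAs in pattern per measured member. TMM factors (edgeR 4.0.16, R 4.3.3) were computed over miRNAs averaging 20 counts or more and came to 1.00, 0.991 and 1.01 for control, 3 min and 5 min. Ratios between libraries carry exact (Clopper-Pearson) 95% intervals from the binomial split of counts, and ratios of within-library ratios carry exact conditional intervals; those conditional intervals were added after the data were seen, as was the comparison with miR-27. Levels are CPM of the library total. Alternatives were library totals, totals without the 10 leading miRNAs, DESeq2 1.42.0 size factors (filtered or all miRNAs), TMM over all miRNAs or over those averaging 100 counts or more, and a 2-fold size rule. The ratio step was tested on simulated data with counting error only, as the intervals assume. That test could not cover variation between cultures or libraries. Sequences are from RefSeq (GRCh38.p14), where 2281 of 2588 names matched, and host genes from GENCODE 29. Intervals came from scipy 1.17.1 and tables from pandas 2.3.3 and numpy 2.4.6, under Python 3.11.15; matplotlib 3.10.9 drew the plots.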

Additional observations from a re-analysis of the deposited data

Results flagged for a closer look

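Among the measured members, miR-128-3p and miR-9-5p were picked out because each lay on opposite sides of the control at the 2 exposures. For each, both counting intervals lay off 1. Other measured miRNAs met the same rule, so this crossing is not particular to the members. miR-222-3p had log2 ratios of 0.38 at 3 min and -0.34 at 5 min, and miR-204-5p 0.085 and -0.30. let-7f-5p crossed the other way, at -0.056 and 0.052. How many of all measured miRNAs met the rule was not counted. Against control, miR-128-3p had a log2 ratio of 0.22 at 3 min (0.11 to 0.32) and -0.60 at 5 min (-0.75 to -0.46), and one of -0.82 (-0.96 to -0.68) for 5 min against 3 min. miR-9-5p had the reverse order, with -0.12 at 3 min (-0.16 to -0.09) and 0.15 at 5 min (0.12 to 0.19), and 0.28 (0.24 to 0.31) for 5 min against 3 min. The difference between exposures was not tested, since each is 1 library, and both share the control. For miR-9-5p the 5 min ratio turned negative when all listed miRNAs entered the scaling; for miR-128-3p both signs held in the 6 other scalings.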

How the results depend on the processing

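For 5 min plasma against control, scaling over all listed miRNAs moved miR-128-3p to -0.81 (DESeq2) and -0.77 (TMM), miR-9-5p to -0.056 and -0.017, and the summed members to -0.11 and -0.072, from 0.098 in the scaling used; it put 2 miRNAs of the other neural list at 1.5-fold lower, against 1, and 42 or 40 of all 231, against 27. For 3 min against control, miR-9-5p was at -0.16 with DESeq2 over filtered miRNAs, -0.20 with DESeq2 over all, -0.18 with TMM over all and -0.18 with TMM at a mean of 100 counts; the sum, at -0.088 in the scaling used, was at -0.12, -0.16, -0.15 and -0.15 in that order. For 5 min against 3 min, miR-9-5p was at 0.14 (DESeq2, all), 0.16 (TMM, all) and 0.34 (TMM, mean of 100), and the sum, 0.19 in the scaling used, at 0.051, 0.074 and 0.25. The members at least 1.5-fold lower in that pair numbered 1 with library totals, with totals without the 10 leading miRNAs and with TMM at a mean of 100 counts, against 2. A 2-fold rule left 0 members lower after 5 min against control and against 3 min, and 0 of the other neural list after 5 min against control. TMM over all listed miRNAs shifted every log2 ratio of 5 min against control by -0.17. The cause was not tested. No paired analysis was possible because each group holds 1 library. Depth limits miR-9-3p, miR-129-5p and the opposite arms most.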
